A study of Mus musculus with 2 samples.

Results

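Amino acids reach the neural retina across capillaries whose endothelial cells are sealed by tight junctions, so supply depends on carriers in the endothelial membranes. The carriers of this barrier followed here were chosen by name, with earlier results of these data known: Slc7a1, Slc7a5, Slc7a8, Slc3a2, Slc38a5, Slc1a1 and Slc43a2, which are 7 of the 32285 genes listed in the files. All 7 were detected, and each had at least 30 UMIs (unique molecular identifiers, 1 per captured transcript) in endothelial cells.

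Cells from mouse retinas at postnatal day 6 were enriched for CD31, a surface protein of endothelium, with magnetic beads and profiled with the 10x Genomics 3' v3.1 kit. There was 1 control library, from mice with floxed Alk1 alleles (Alk1f/f), and 1 Alk1 ECKO library, from Alk1f/f mice that also carried Cdh5 CreERT2, a tamoxifen-dependent Cre under the promoter of the endothelial cadherin gene Cdh5. ALK1 (gene Acvrl1) is a receptor for BMP9 and BMP10 that signals through SMAD1 and SMAD5 in endothelial cells. Both groups share the floxed alleles, and the label of the control names no Cre. The labels do not give the tamoxifen schedule, the deleted exons or how many pups were pooled. With 1 library per genotype there is no replicate and no test between genotypes, so each difference is between these 2 libraries and each 95% interval covers counting error alone.

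The control library held 8739 barcodes and 54800465 UMIs, the Alk1 ECKO library 5308 barcodes and 62728605 UMIs. After filtering, 309 of 7409 control cells (4.17%) and 1265 of 4094 Alk1 ECKO cells (30.9%) were endothelial-like (called endothelial here), with 10356816 and 37811259 UMIs. All 15 endothelial markers were detected in both, at 103 to 3003 CPM (UMIs of a gene scaled by all UMIs of the class) in control cells and 60.9 to 2196 CPM in Alk1 ECKO. Acvrl1 stood at 115 CPM in control cells and 118 CPM in Alk1 ECKO, which checks nothing, since 3' tags need not cover the deleted part. A total of 20 barcode sequences occurred in both libraries. Mitochondrial UMIs were 4.09% of the endothelial total in control and 2.42% in Alk1 ECKO. Barcodes with endothelial and mural genes together, 4 in control and 100 in Alk1 ECKO, were set aside. So were 3 control and 1245 Alk1 ECKO barcodes with endothelial genes and few mitochondrial UMIs.

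The 7 genes fall into a few functional kinds. Slc7a5 (LAT1) and Slc7a8 (LAT2) are light chains that exchange large neutral amino acids and pair with the heavy chain Slc3a2 (4F2hc, CD98), which brings them to the membrane. Slc43a2 (LAT4) moves branched-chain amino acids and phenylalanine without that heavy chain. Slc7a1 (CAT1) carries the cationic amino acids arginine, lysine and ornithine. Slc38a5 (SNAT5) couples glutamine and other small neutral amino acids to sodium and protons. Slc1a1 (EAAT3) takes up glutamate, aspartate and cysteine with sodium. Several of them are transcriptional targets of the stress factor ATF4 in other cells, and LAT1 with 4F2hc feeds leucine to the nutrient sensor mTORC1.

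In GENCODE vM21 (mm10) all 7 are protein-coding genes. Slc7a1 lies at chr5:148327410-148399904 on the minus strand, Slc7a5 at chr8:121881150-121907694 on the minus strand, and Slc7a8 at chr14:54722209-54781946 on the minus strand. Slc3a2 lies at chr19:8706882-8723369 on the minus strand and Slc1a1 at chr19:28835049-28913960 on the plus strand. Slc38a5 lies at chrX:8271133-8280179 and Slc43a2 at chr11:75531694-75577575, both on the plus strand.

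Promoter windows from RefSeq (GRCm38.p6) matched 6 of the 7, all except Slc7a5, in 8 windows of 250 bases before a start site. Those of 3 carriers that were lower in the Alk1 ECKO library and of the 1 that was higher are printed because the results below turn on these genes, trimmed to the bases before the GENCODE gene. They run 5' to 3' on the strand of the gene, at chr5:148399905-148400154 (Slc7a1, minus), chr14:54781947-54782136 (Slc7a8, minus), chr11:75531444-75531693 (Slc43a2, plus) and chr19:28834885-28835048 (Slc1a1, plus). Capitals mark the only match to a searched motif in them.
Slc7a1: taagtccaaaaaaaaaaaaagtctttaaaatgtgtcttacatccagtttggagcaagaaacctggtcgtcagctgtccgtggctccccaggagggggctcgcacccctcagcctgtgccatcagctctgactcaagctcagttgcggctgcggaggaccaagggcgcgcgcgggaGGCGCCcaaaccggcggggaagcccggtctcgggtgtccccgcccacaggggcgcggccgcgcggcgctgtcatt
Slc7a8: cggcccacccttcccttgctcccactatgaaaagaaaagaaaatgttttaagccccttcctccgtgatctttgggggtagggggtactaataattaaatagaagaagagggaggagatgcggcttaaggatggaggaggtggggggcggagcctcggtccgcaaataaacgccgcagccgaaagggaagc
Slc43a2: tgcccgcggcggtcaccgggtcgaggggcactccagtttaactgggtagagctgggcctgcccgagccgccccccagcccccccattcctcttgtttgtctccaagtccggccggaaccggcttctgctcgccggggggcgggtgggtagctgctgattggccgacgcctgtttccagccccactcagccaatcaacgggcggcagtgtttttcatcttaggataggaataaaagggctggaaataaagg
Slc1a1: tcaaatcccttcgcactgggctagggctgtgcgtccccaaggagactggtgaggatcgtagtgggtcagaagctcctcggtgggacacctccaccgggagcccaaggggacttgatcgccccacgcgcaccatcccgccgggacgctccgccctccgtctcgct
Motifs were searched on both strands: the hypoxia response core ACGTGC, the ATF4 composite core TGATGNAA, the TCF/LEF core CTTTGAT, and the element GGCGCC bound by SMAD1 and SMAD5. The last, a palindrome, occurred once, 75 bases before the start of Slc7a1, and 9.59% of all 32851 windows hold it. CTTTGAT occurred once in the members, 48 bases before the alternative downstream start of Slc7a1, against 3.21% of all windows. TGATGNAA (3.45% of all windows) and ACGTGC (4.92%) had no match in the 8 windows, which says only that these letters are not there.

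The first comparison set the endothelial cells of the Alk1 ECKO library against those of the control library. Of the 7 carriers 4 were lower (Slc7a1, Slc7a8, Slc43a2 and Slc38a5), 1 was higher (Slc1a1), and the LAT1 pair Slc7a5 and Slc3a2 was neither. A gene was called lower or higher when its ratio lay at least 1.5-fold from the median ratio of all 12497 measured genes, with an interval that excluded that median. That median was -0.22 on the log2 scale, and relative log2 ratios are given against it. By this rule 9.07% of all measured genes were lower and 9.20% were higher, against 4 and 1 of the 7 carriers. The median relative log2 ratio of the 7 was -0.60.

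Slc7a1, the cationic amino acid carrier, measured 711 CPM (695 to 727, 7362 UMIs) in control cells and 275 CPM (269 to 280, 10382 UMIs) in Alk1 ECKO. The intervals do not overlap, and the level was 2.59-fold lower. Its relative log2 ratio was -1.16 (-1.20 to -1.11), and 2.26% of measured genes had a lower ratio. Cells thinned to 2000 UMIs showed the same order: 67.1% of 301 control cells (61.5 to 72.4) and 38.1% of 1098 Alk1 ECKO cells (35.2 to 41.0) held a Slc7a1 UMI, and 94.2% and 74.5% did without thinning. Thinning left out 8 control and 167 Alk1 ECKO cells.

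Slc7a8, the light chain LAT2, measured 36.6 CPM (33.0 to 40.5, 379 UMIs) in control cells and 10.3 CPM (9.29 to 11.4, 389 UMIs) in Alk1 ECKO. At 3.56-fold lower it had the lowest ratio of the 7 in these sums, with a relative log2 ratio of -1.62 (-1.82 to -1.41). Of measured genes 1.0% had a lower ratio. As the mean of per-cell CPM the relative log2 ratio was nearer 0, at -1.05. Few cells held a Slc7a8 UMI at 2000 UMIs, 3.99% in control (2.08 to 6.86) and 2.46% in Alk1 ECKO (1.63 to 3.56). Those shares overlap in their intervals. In cells thinned to 5000 UMIs, 13.6% of 286 control cells and 6.13% of 914 Alk1 ECKO cells held a Slc7a8 UMI. Intervals of the shares at that greater depth are not given here.

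Slc43a2, the LAT4 carrier, measured 69.8 CPM (64.8 to 75.1) in control cells and 30.3 CPM (28.5 to 32.1) in Alk1 ECKO, a 2.31-fold lower level. Its relative log2 ratio was -0.99 (-1.13 to -0.85). Slc38a5, the glutamine carrier, measured 168 CPM (161 to 176) in control cells and 95.4 CPM (92.4 to 98.6) in Alk1 ECKO, a 1.76-fold lower level. Its relative log2 ratio of -0.60 (-0.69 to -0.52) lies just beyond the 1.5-fold limit.

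Slc7a5, the light chain LAT1, measured 182 CPM (174 to 190) in control cells and 143 CPM (139 to 147) in Alk1 ECKO. Its heavy chain Slc3a2 measured 810 CPM (793 to 828) and 634 CPM (626 to 643). Both were lower by nearly the same ratio, 1.27-fold and 1.28-fold. Relative to the median gene the log2 ratios were -0.13 (-0.21 to -0.06) and -0.14 (-0.17 to -0.10), so both subunits lay close to the bulk of genes and far from the light chain Slc7a8. In control 57.7% of 286 cells thinned to 5000 UMIs held UMIs of both Slc7a5 and Slc3a2 (51.7 to 63.5), and in Alk1 ECKO 48.6% of 914 cells did (45.3 to 51.9). The products of the single shares, 56.9% and 46.8%, lie within these intervals.

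Slc1a1, the glutamate carrier, went the other way. It measured 3.77 CPM (2.68 to 5.15, 39 UMIs) in control cells and 10.3 CPM (9.27 to 11.3, 388 UMIs) in Alk1 ECKO, a 2.73-fold higher level. The relative log2 ratio was 1.66 (1.18 to 2.18), and 98.5% of measured genes had a lower one. Both levels are low, with a UMI in 7.44% of control and 15.4% of Alk1 ECKO endothelial cells. At 2000 UMIs the shares were 0.66% (0.08 to 2.38) and 1.46% (0.84 to 2.36), a difference that was not detectable at this depth.

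**Figure D1:**
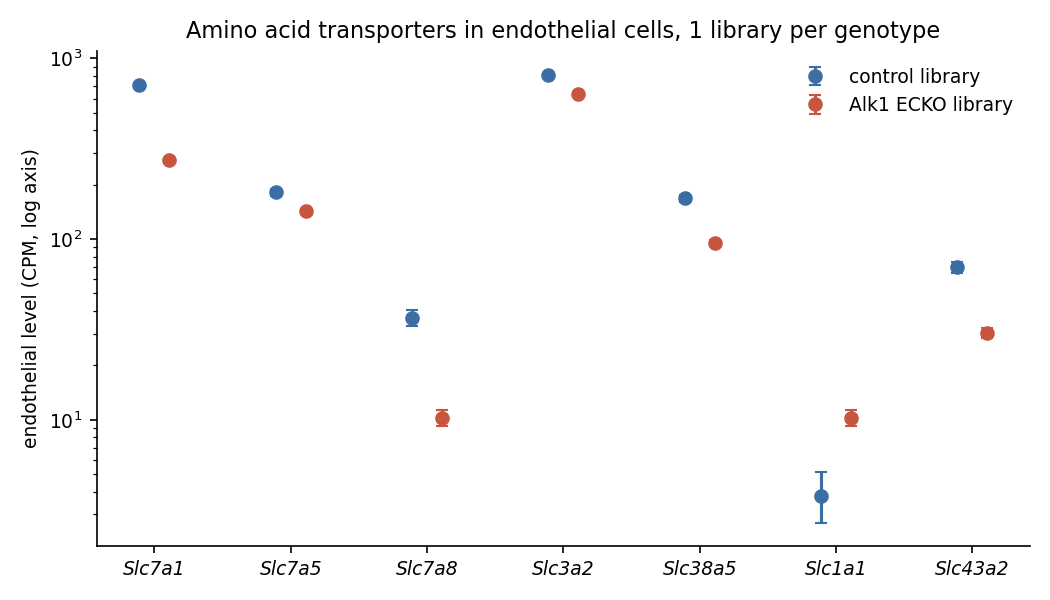
Level of the 7 carriers in endothelial cells (CPM, log axis) in the control library (blue) and the Alk1 ECKO library (red); points are sums over cells and bars are exact Poisson 95% intervals, hidden by the points where narrow. Slc1a1 alone lies higher in Alk1 ECKO, at 10.3 against 3.77 CPM.

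RNA of other classes moved between the libraries too. Within the endothelial cells the 14 rod markers summed to 102 CPM in control cells and 16.2 CPM in Alk1 ECKO, with none at 0 in control and 1 in Alk1 ECKO. The 12 mural markers summed to 8.98 and 96.9 CPM, with 4 and 0 at 0. The 16 microglial or macrophage markers summed to 52.3 and 61.4 CPM, with 3 and 0 at 0. Scaled by these sums, rod RNA would account for 0.35 of the 3.77 CPM of Slc1a1 in control and 0.05 of 10.3 CPM in Alk1 ECKO. Microglial RNA would account for 0.20 of 36.6 CPM of Slc7a8 in control and 0.16 of 10.3 CPM in Alk1 ECKO. Mural RNA, the largest of the 3 in Alk1 ECKO, would account for 0.51 of 275 CPM of Slc7a1.

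The next question was where in the retina each carrier is found, across 8 named cell classes and 1 unnamed cluster, each with at least 20 cells in the library read. Cells of the other clusters without a name, 1246 in control and 111 in Alk1 ECKO, were not read. The orders below therefore hold among the classes read and do not cover the whole retina. Slc7a1, Slc7a5, Slc3a2 and Slc38a5 were highest in endothelial cells in both libraries. Slc7a8 and Slc43a2 were highest in microglia or macrophages, and Slc1a1 was highest in rods. Beside these levels stands the level that free endothelial RNA would give, scaled from 5 endothelial genes (Cldn5, Cdh5, Pecam1, Esam and Egfl7) in the same class. The unnamed cluster (127 control and 23 Alk1 ECKO cells) was led by Igf2, replication histone genes and Pdgfra and held 3 astrocyte markers among its top 20 genes. When clustered from 2000 UMIs per barcode upward, 95 of its control cells fell in a cluster led by histone genes and 21 in an astrocyte-like one, so it is a mixture.

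In the classes read, Slc38a5 was rarely counted outside endothelial cells. In control it measured 168 CPM in endothelial cells, and 0.42 CPM in rods (5 UMIs), against 0.68 CPM from free RNA. Of the other control classes the neurogenic precursors held 3 UMIs, the amacrine cells 1, and Müller glia or late progenitors, cones, bipolar cells, microglia and the unnamed cluster 0. A count of 0 in 5000005 bipolar UMIs allows up to 0.74 CPM. In Alk1 ECKO the 23 cells of the unnamed cluster held 4 UMIs, 19.0 CPM (5.19 to 48.7), against 0.47 CPM from free RNA, while 149 mural cells held 0. In the astrocyte-like cluster obtained from 2000 UMIs upward, 18 Alk1 ECKO cells held 10 UMIs (39.4 CPM, 18.9 to 72.4) and 21 control cells held 0, which allows up to 16.7 CPM. That cluster held 4 UMIs in 17 Alk1 ECKO cells when the carriers were allowed among the clustering genes, so the level rests on few cells.

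Slc7a1 in control was 711 CPM in endothelial cells and 32.0 CPM (22 to 44.9) in the unnamed cluster, the next in order, 22.2-fold below. After the split from 2000 UMIs upward, 96 control cells of the histone-led cluster held 42.0 CPM (28.7 to 59.3) and the 21 astrocyte-like cells 1 UMI. From there down the neighbours in the order do not differ beyond their intervals. Amacrine cells stood at 11.6 CPM and microglia at 3.79 CPM, with 5.92 CPM from free RNA. In Alk1 ECKO mural cells came second at 60.5 CPM (51.1 to 71.2), above the 12.5 CPM from free RNA.

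Slc7a5 had the same 2 leading groups in control, with 182 CPM in endothelial cells and 20.4 CPM (12.6 to 31.1) in the unnamed cluster, where free RNA would give 1.61 CPM. In Alk1 ECKO the unnamed cluster held 57.1 CPM (29.5 to 99.8) from 12 UMIs in 23 cells. Here the split ran the other way, with 72.3 CPM (41.4 to 117) in the 21 astrocyte-like control cells and 6.56 CPM (2.13 to 15.3) in the 96 of the histone-led cluster. Slc3a2 was present in every class, from 79.0 CPM in bipolar cells to 403 CPM in microglia and 810 CPM in endothelial cells in control. The heavy chain thus reached classes in which Slc7a5 was under 11 CPM.

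Slc7a8 in microglia or macrophages measured 135 CPM (111 to 163) in control cells and 108 CPM (97.4 to 120) in Alk1 ECKO, 3.69 and 10.5 times the endothelial level of the same library. Rods held 28.4 CPM (25.4 to 31.6) and 18.6 CPM (11.7 to 28.2). The endothelial level stood second of 9 in control. In Alk1 ECKO it stood below rods, with an interval clear of theirs, and below amacrine cells, which held 4 UMIs. Slc43a2 in microglia or macrophages measured 167 CPM (139 to 198) and 102 CPM (91.5 to 113), above endothelial cells in both libraries. Bipolar cells held 31.0 CPM in the control and 33.1 CPM in the Alk1 ECKO library.

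Among the control classes read Slc1a1 was highest in photoreceptors and amacrine cells, with 82.6 CPM (77.5 to 87.9) in rods, 61.8 CPM in cones and 57.1 CPM in amacrine cells. Cones and amacrine cells do not differ beyond their intervals. Endothelial cells held 0.0456 times the rod level in control and 0.121 times the rod level in Alk1 ECKO. Mural cells in Alk1 ECKO and microglia in control held 0 UMIs.

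**Figure D2:**
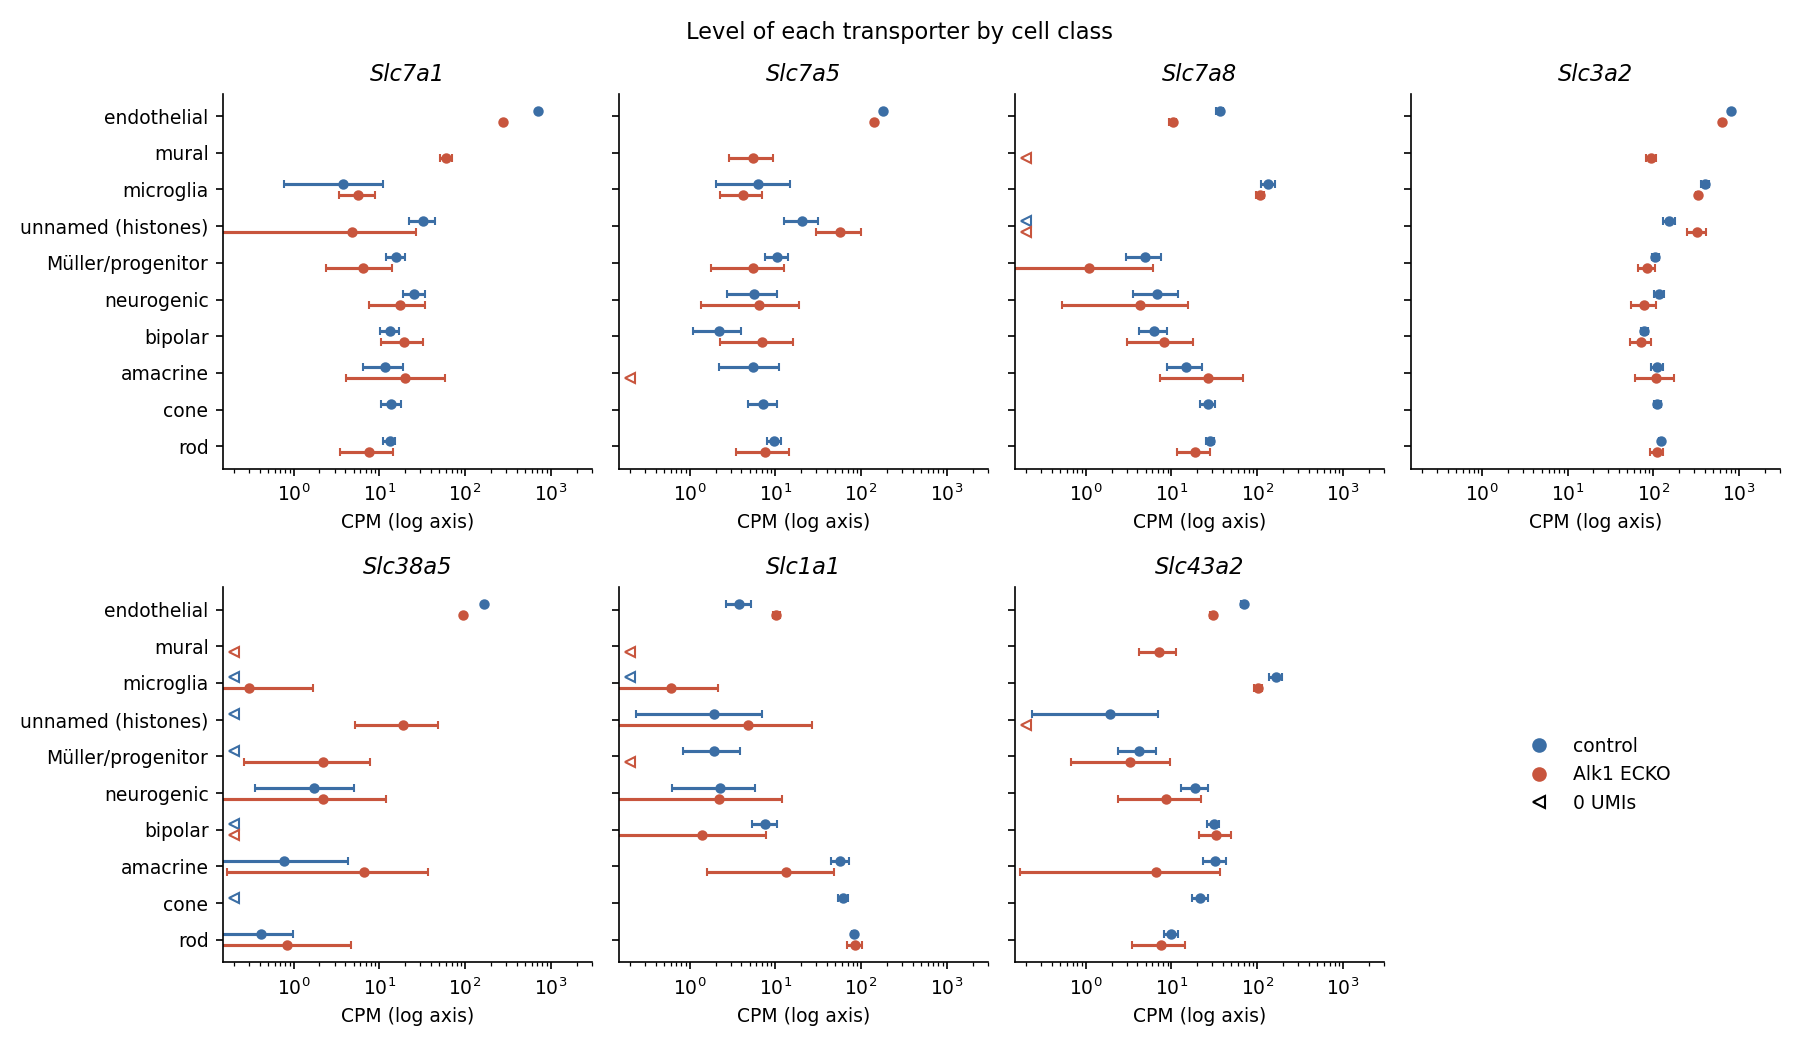
Level of each carrier (CPM, log axis) by cell class in the control (blue) and Alk1 ECKO (red) libraries, with exact Poisson 95% intervals that run past the left edge where counts are few; open triangles mark 0 UMIs, "unnamed (histones)" is the mixed cluster of 127 and 23 cells, and classes with under 20 cells in a library are not drawn. Slc38a5 lies at 168 and 95.4 CPM in endothelial cells and at or under 19.0 CPM in the other classes drawn.

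The same comparison of libraries was made in the 5 other classes with at least 30 cells in each. There 20 pairs of carrier and class were measured, and 0 were called lower or higher. All measured genes were called lower in 5.56% of cases in Müller glia or late progenitors, 5.58% in bipolar cells, 8.24% in microglia, 5.97% in neurogenic precursors and 5.51% in rods. The shares called higher were 5.02%, 7.70%, 6.24%, 8.15% and 7.16%. Slc43a2 in microglia came closest among those with narrow intervals, at a relative log2 ratio of -0.57 (-0.87 to -0.27).

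Differences of the relative log2 ratios, endothelial minus other class, carry their own counting intervals. For Slc7a8 the endothelial ratio lay below that of microglia by -1.43 (-1.81 to -1.06) and below that of rods by -1.16 (-1.82 to -0.51). For Slc43a2 the difference from microglia was -0.42 (-0.74 to -0.10) and from bipolar cells -1.25 (-1.88 to -0.61). For Slc7a1 the difference was -0.52 (-1.49 to 0.45) from rods, -0.07 (-1.28 to 1.14) from Müller glia or late progenitors and -0.77 (-1.86 to 0.31) from neurogenic precursors, so none of the 3 was detectable at this depth. In Müller glia or late progenitors, with 64 and 6 UMIs, the relative log2 ratio of Slc7a1 was -1.09 (-2.59 to 0.11). Against bipolar cells, where Slc7a1 had 66 and 14 UMIs, it was -1.87 (-2.70 to -1.04). For Slc1a1 the endothelial ratio lay above that of rods by 1.47 (0.91 to 2.03). For the heavy chain Slc3a2 all 5 intervals include 0, from -0.16 against bipolar cells to 0.26 against neurogenic precursors. All these differences use the ratio over all endothelial cells, whose makeup differed between the libraries, as described below. At the equal makeup described there, the endothelial value was -0.57 for Slc43a2 and -0.68 for Slc7a8. Slc43a2 stood at -0.57 in microglia and 0.26 in bipolar cells. Slc7a8 stood at -0.18 in microglia and -0.46 in rods.

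Endothelial cells were divided into sub-clusters with the 7 carriers left out of the genes that drove the clustering. Capillaries with mature barrier genes, sprouting tip cells and cycling cells are the main populations of the growing retinal plexus. From their leading genes, sub-cluster 4 (Spock2, Slco1c1) and sub-cluster 2 (Apod, Itm2a, Mfsd2a) were named barrier capillary-like and sub-cluster 3 (Kcne3, Angpt2, Esm1) tip-like. Sub-cluster 0 (Top2a, Cenpf, Mki67) was led by G2/M genes. Sub-cluster 2 held tip markers as well, as given below. Sub-clusters 1, 5 and 7 stayed unnamed. Sub-cluster 4 held 173 control and 56 Alk1 ECKO cells, sub-cluster 0 held 80 and 251, and sub-cluster 3 held 26 and 209. Sub-clusters 2, 1 and 5 held 4, 10 and 0 control cells and 245, 296 and 185 Alk1 ECKO cells, so a cluster mostly of 1 library may be that library and not a type. Sub-cluster 7 held 16 and 23 cells, and levels are given from 20 cells upward. Median depth ranged from 2435 UMIs per cell in sub-cluster 5 to 58014 in Alk1 ECKO cells of sub-cluster 0.

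Within each library the barrier capillary-like sub-cluster 4 was set against the tip-like sub-cluster 3 by the same 1.5-fold rule, relative to the median gene. In control all 6 measured carriers were called higher in sub-cluster 4, where 13.9% of 9498 measured genes were higher and 17.6% lower. Slc1a1, with 13 and 12 UMIs, was not measured. In Alk1 ECKO 5 of 7 were called higher and Slc1a1 lower, where 15.7% of 10000 genes were higher and 15.8% lower. Slc3a2 there had a relative log2 ratio of 0.36 and was not called. In control Slc7a1 measured 1026 CPM (997 to 1056) in sub-cluster 4, 473 CPM in the cycling cells and 343 CPM (304 to 387) in tip-like cells. Slc38a5 measured 273 CPM (258 to 289), 79.1 CPM and 48.1 CPM (34.1 to 66.0) in the same order, and Slc43a2 measured 118 CPM, 30.9 CPM and 24.1 CPM. Sub-cluster 4 thus held 2.99 times the tip-like level of Slc7a1, 5.68 times that of Slc38a5 and 4.91 times that of Slc43a2.

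For the system L subunits in control the gradient was 1.95-fold for Slc7a5 (259 against 133 CPM) and 1.99-fold for Slc3a2 (1043 against 526 CPM). Slc7a8 measured 57.4 CPM (50.6 to 64.7) in sub-cluster 4 and 5.07 CPM (1.38 to 13.0) from 4 UMIs in tip-like cells. Slc1a1 measured 2.82 CPM (1.5 to 4.83) in sub-cluster 4 and 15.2 CPM (7.85 to 26.5) from 12 UMIs in tip-like cells. These sub-clusters are groups of cells from 1 library each time, so the contrast describes them and is no test.

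In Alk1 ECKO the barrier over tip-like ratio was 3.90 for Slc7a1 (540 against 139 CPM), 4.21 for Slc38a5 (140 against 33.2 CPM) and 2.72 for Slc43a2 (64.1 against 23.6 CPM). It was 1.78 for Slc7a5 and 1.47 for Slc3a2. Slc7a8 measured 37.4 CPM (27.0 to 50.6) in sub-cluster 4 and 1.20 CPM (0.57 to 2.20) in tip-like cells. Slc1a1 measured 1.78 CPM from 2 UMIs in sub-cluster 4 and 20.3 CPM (17.3 to 23.6) in tip-like cells, the highest of the 7 sub-clusters.

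In sub-clusters 5 and 7 of Alk1 ECKO Slc7a8 was at its 2 highest levels and Slc38a5 at its 2 lowest of the 7 sub-clusters. In sub-cluster 5 (Mgp, Aqp1, Cd74) the 11 arterial markers summed to 3876 CPM, the highest of the sub-clusters. The 11 barrier capillary markers summed there to 3697 CPM, and Slc7a8 measured 64.4 CPM (47.4 to 85.7). Slc38a5 there was 2.74 CPM (0.33 to 9.91) from 2 UMIs. In sub-cluster 7 (Aqp1, Slco1a4), where the 11 barrier capillary markers summed to 5169 CPM, Slc7a8 measured 87.1 CPM (64.2 to 115) and Slc3a2 1635 CPM (1530 to 1745). Slc38a5 in sub-cluster 7 had 0 UMIs, which allows up to 6.69 CPM. Alk1 ECKO cells of sub-cluster 2, named barrier capillary-like, held Slc38a5 at 172 CPM (164 to 181) and Slc7a8 at 14.8 CPM (12.4 to 17.6). Their barrier capillary markers summed to 2648 CPM, below sub-clusters 5 and 7. Of these 11 markers 5 were raised in sub-cluster 2, against 7 each in sub-clusters 5 and 7. The 10 tip markers summed to 1721 CPM in sub-cluster 2. In the same library they summed to 985 CPM in sub-cluster 4, 1533 CPM in sub-cluster 5, 1368 CPM in sub-cluster 7 and 3147 CPM in tip-like cells. Mfsd2a measured 172 CPM in sub-cluster 2, 166 CPM in sub-cluster 5 and 134 CPM in sub-cluster 7. Sub-cluster 1, also unnamed, held Slc38a5 at 113 CPM (100.2 to 128) and Slc7a8 at 9.10 CPM (5.63 to 13.9). Sub-cluster 4 held both, as given above.

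**Figure D3:**
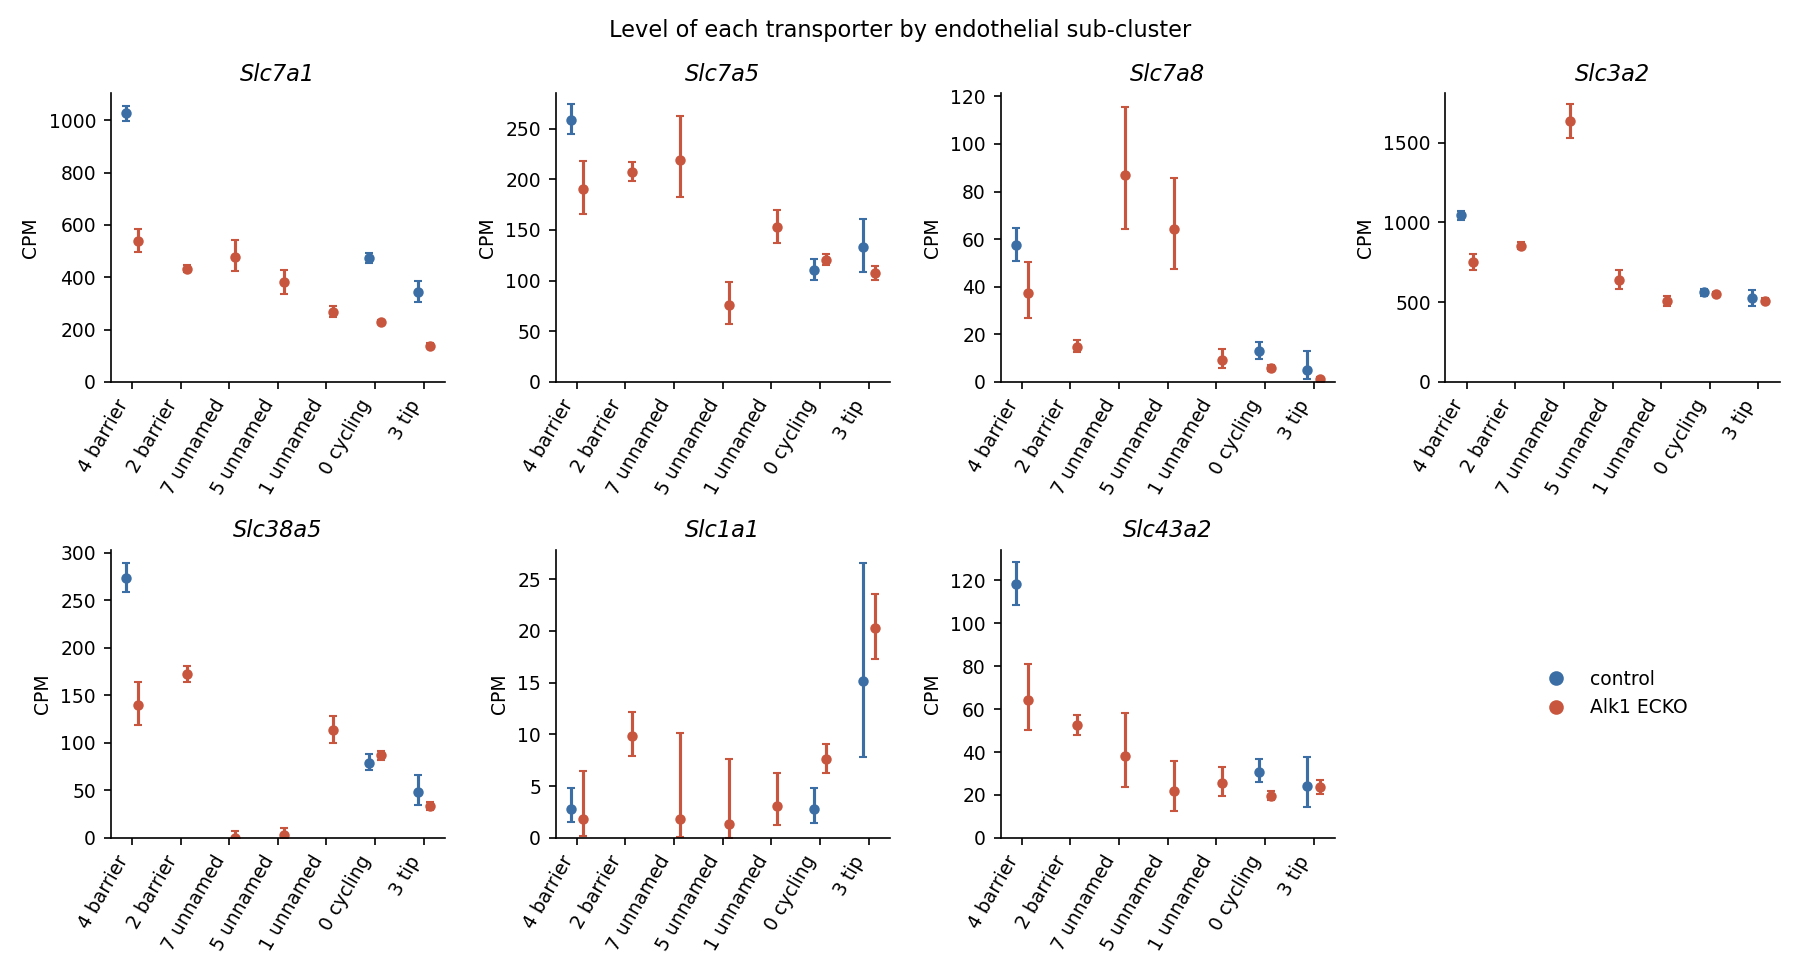
Level of each carrier (CPM, linear axes from 0) by endothelial sub-cluster, with exact Poisson 95% intervals. Control is blue (3 sub-clusters with at least 20 cells) and Alk1 ECKO red (7 sub-clusters). From the left stand barrier capillary-like 4 and 2, unnamed 7, 5 and 1, cycling 0 and tip-like 3, an order not set by marker levels. Slc7a1 lies at 1026 and 540 CPM in sub-cluster 4 and at 343 and 139 CPM in sub-cluster 3, while Slc1a1 peaks at sub-cluster 3.

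Ratios between libraries were then taken within the 3 sub-clusters that held at least 20 cells of each. Slc7a1 was lower in all 3. Its relative log2 ratio was -0.90 (-1.03 to -0.78) in barrier capillary-like cells, -0.88 (-0.96 to -0.80) in cycling cells and -1.22 (-1.42 to -1.03) in tip-like cells. In sub-cluster 4 a total of 4 carriers were lower and 0 higher, where 4.51% of 9599 measured genes were lower and 3.80% higher. In sub-cluster 0 a total of 2 were lower and 1 higher, against 7.75% and 7.75% of genes. In sub-cluster 3 Slc7a1 was lower and 0 were higher, against 7.38% and 7.40%. Slc7a8 in sub-cluster 3 and Slc1a1 in sub-cluster 4 fell short of 30 UMIs and were not measured.

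Slc38a5 was lower in barrier capillary-like cells, 273 against 140 CPM, with a relative log2 ratio of -0.94 (-1.19 to -0.70). It was not called in cycling cells, 79.1 against 86.8 CPM at 0.31 (0.14 to 0.49), nor in tip-like cells, 48.1 against 33.2 CPM at -0.45 (-0.94 to 0.08). Slc43a2 was lower in barrier capillary-like cells at -0.86 (-1.23 to -0.50), and stood at -0.47 (-0.77 to -0.17) in cycling and 0.06 (-0.62 to 0.82) in tip-like cells. Slc7a8 was lower in barrier capillary-like cells at -0.59 (-1.10 to -0.12) and in cycling cells at -1.03 (-1.53 to -0.52). In tip-like cells Slc7a8 rested on 4 and 10 UMIs.

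Sub-cluster 4 differed in composition between the libraries, and marker sums within sub-clusters 0 and 3 differed too, as given below. The 11 arterial markers summed there to 1210 CPM in control cells and 2325 CPM in Alk1 ECKO, and the 11 barrier capillary markers to 4578 and 3783 CPM. Ratios within the finer sub-clusters of resolution 1.0 were added after the data were seen. There an arterial-like sub-cluster of 22 control and 24 Alk1 ECKO cells stood apart from a barrier capillary-like one of 151 and 31 cells. In that barrier sub-cluster Slc38a5 was called lower, 298 against 172 CPM at -0.77 (-1.06 to -0.48). Slc7a1 there, 1077 against 765 CPM at -0.46 (-0.60 to -0.33), fell short of the 1.5-fold limit, as did Slc43a2 at -0.49 (-0.91 to -0.09) and Slc7a8 at -0.39 (-1.01 to 0.18). Thus 1 carrier was lower and 0 higher, where 3.32% of 9210 genes were lower and 2.83% higher.

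In the arterial-like cells Slc7a1 was lower, 598 against 216 CPM at -1.43 (-1.77 to -1.09), and so was Slc7a5 at -0.65 (-1.25 to -0.06), where 7.97% of 4895 genes were lower and 5.97% higher. Slc38a5 there was 63.3 against 52.4 CPM at -0.23 (-1.06 to 0.59). The cycling cells also divided at that resolution. Slc38a5 was higher in 1 sub-cluster led by G2/M genes (52 and 165 cells), 73.4 against 112 CPM at 0.79 (0.60 to 0.98), where 7.52% of genes were lower and 6.68% higher. It was lower in the other (28 and 80 cells), 115 against 32.8 CPM at -1.76 (-2.18 to -1.32), where 9.38% of genes were lower and 9.63% higher. Slc7a8 was lower in the larger of these cycling sub-clusters, 13.7 against 7.66 CPM at -0.66 (-1.18 to -0.12). In the smaller one Slc7a8 had 5 and 6 UMIs and was not measured. Slc7a1 was lower in both, at -0.62 (-0.71 to -0.54) and -1.78 (-1.99 to -1.57). It was also lower in the only other sub-cluster with 20 cells of each library, an unnamed one (23 and 91 cells), at -0.76 (-0.97 to -0.55), where 5.79% of genes were lower and 6.07% higher.

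Slc1a1 was higher in cycling cells of sub-cluster 0, 2.78 against 7.58 CPM (12 and 120 UMIs), with a relative log2 ratio of 1.62 (0.77 to 2.62). At resolution 1.0 the larger cycling sub-cluster (52 and 165 cells) had 3.23 against 4.61 CPM at 0.70 (-0.23 to 1.74), not called. The smaller one (28 and 80 cells) had 0 and 70 UMIs, 0 against 14.7 CPM, and was called higher. In tip-like cells it was 15.2 against 20.3 CPM, at 0.50 (-0.34 to 1.48), and in barrier capillary-like cells it had 13 and 2 UMIs. Slc7a5 and Slc3a2 were called in none of the 3, with values from -0.42 to 0.30 and from -0.45 to 0.15.

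The makeup of the endothelial cells differed between the libraries along with these levels. Sub-cluster 4 was 56.0% of control and 4.43% of Alk1 ECKO endothelial cells, and tip-like cells were 8.41% and 16.5%. Endothelial levels are sums of UMIs, so deep cells weigh more in them than their number. Sub-cluster 0, with 25.9% and 19.8% of the cells, held 4310294 of 10356816 control UMIs and 15839703 of 37811259 Alk1 ECKO UMIs. The 11 barrier capillary markers summed to 2866 CPM in control cells and 1606 CPM in Alk1 ECKO, with 8 lower and none at 0. The 10 tip markers summed to 1083 and 2052 CPM, with 9 higher. Weighting the 3 shared sub-clusters alike in both libraries left 279 control cells (90.3%) and 516 Alk1 ECKO cells (40.8%). The weighting does not even out differences inside a sub-cluster. From control to Alk1 ECKO, tip marker sums went from 1198 to 1929 CPM in sub-cluster 0. In sub-cluster 3 they went from 1937 to 3147 CPM. Barrier capillary sums went from 1243 to 1065 CPM and from 1056 to 834 CPM. Their part in the ratios within sub-clusters and at equal makeup was not tested. At equal makeup Slc7a1 was 594 against 291 CPM (relative log2 ratio -0.91, -0.99 to -0.84) and Slc7a8 was 23.4 against 13.5 CPM (-0.68, -1.08 to -0.29), both called lower.

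At equal makeup Slc43a2 (-0.57), Slc38a5 (-0.43), Slc7a5 (-0.11) and Slc3a2 (-0.09) were not called. Slc1a1 was called higher at 6.46 against 9.66 CPM, with a relative log2 ratio of 0.70 (0.07 to 1.32), less than the 1.66 over all cells. Thus 2 carriers were lower and 1 higher, where 6.77% of genes were lower and 6.76% higher. With coarser or finer sub-clusters (resolution 0.4 or 1.0 in place of 0.6) the equal-makeup value of Slc7a8 was -0.31 or -0.48, short of the 1.5-fold limit, and that of Slc38a5 was -0.70 or -0.32, past the limit at 0.4. Slc43a2 too passed the limit at 0.4, with -0.67, and stood at -0.37 at 1.0. Slc7a1 was past the limit at both, with -0.92 and -0.65, and so was Slc1a1, with 0.74 and 1.01. For resolutions 0.4 and 1.0 the intervals and the shares of all genes past the limit at equal makeup are not given here. For Slc7a8 the relative log2 ratio was -1.62 over all endothelial cells and -0.68 at equal makeup, and for Slc7a1 -1.16 and -0.91. These values also differ in the cells read and in their weights. Equal makeup averaged sub-cluster CPM by cell shares over 516 Alk1 ECKO cells, while the ratio over all cells sums the UMIs of 1265. The separate parts of makeup, cells and weights were not tested.

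**Figure D4:**
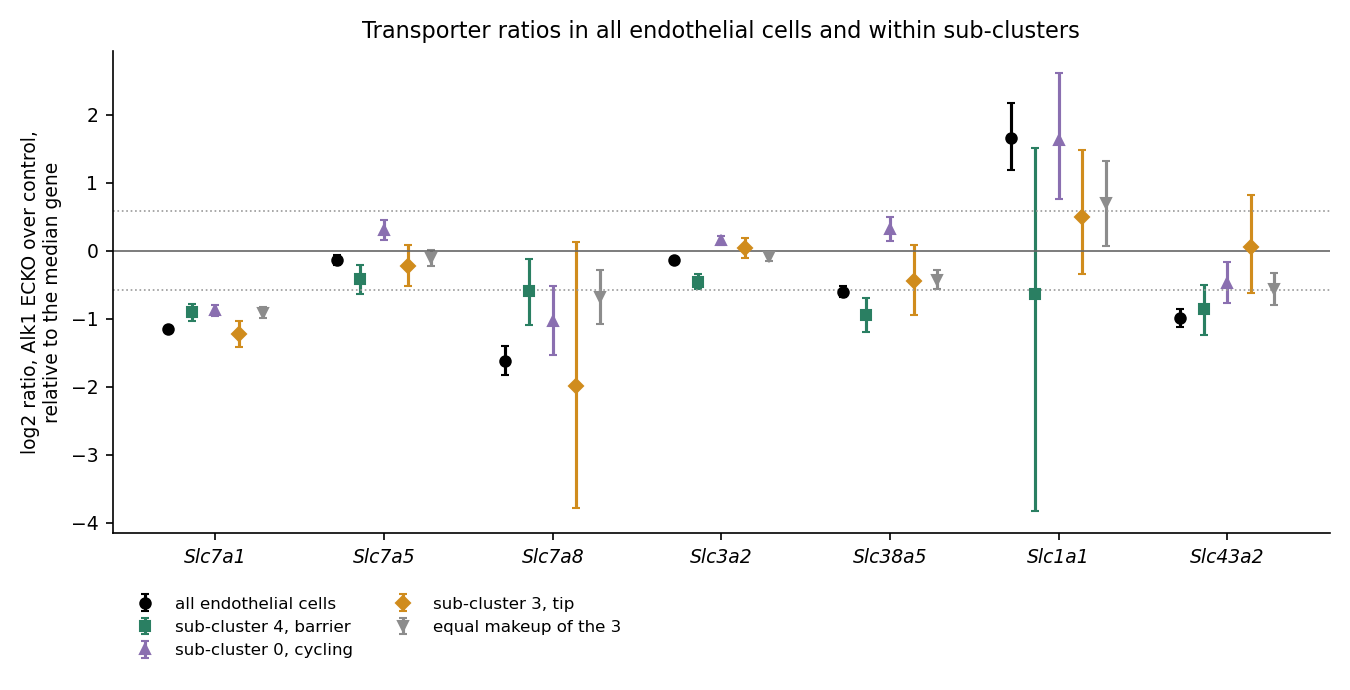
Log2 ratio of Alk1 ECKO over control, relative to the all-gene median, for all endothelial cells (black), 3 sub-clusters and the equal makeup of these 3 (grey); bars are 95% counting intervals and dotted lines mark 1.5-fold. Slc7a1 lies below the lower line in all 5 settings, between -1.22 and -0.88.

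Across 10 units of sub-cluster and library, levels on the scale log2(CPM + 10) were correlated as a description. The units share 2 libraries and differ in depth, and no p-value is given. Slc7a1 ran closest with Slc43a2 (r = 0.82) and Slc7a5 with Slc43a2 (r = 0.81). Slc3a2 ran closer with Slc7a8 (r = 0.80) than with Slc7a5 (r = 0.71). Slc1a1 ran against Slc7a8 (r = -0.78) and Slc7a1 (r = -0.63), and Slc38a5 against Slc7a8 (r = -0.33).

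Among 7643 genes the nearest to Slc7a1 were Mfsd2a (r = 0.96), the lipid carrier of barrier endothelium, Abca1 (0.96), a cholesterol exporter, and Dab2 (0.96), an endocytic adaptor. Nearest to Slc7a8 were Abcb1a (0.99), the P-glycoprotein efflux pump, Elovl7 (0.98), a fatty acid elongase, and Osmr (0.98), the oncostatin M receptor. Mfsd2a and Abcb1a are also among the barrier capillary markers used to name the sub-clusters. All these values are high by selection, as the top 3 of 7643 over 10 units. Nearest to Slc38a5 were Cdh11 (0.98), Steap3 (0.98) and Zic2 (0.98). Slc7a5 ran with Slc17a5, Slc16a4 and Enpp2 (0.96 to 0.93), Slc3a2 with Marc2, Ablim1 and Clpx (0.97 to 0.96), Slc43a2 with N4bp2, Sema6a and Tnfsf10 (0.96 to 0.95), and Slc1a1 with Ptpre, Dynll1 and Lrrfip1 (0.92 to 0.91).

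Other genes of amino acid supply and sensing were read in the same endothelial comparison, from lists chosen with earlier results known. Of 42 other amino acid transporters 17 were measured, of which 2 were lower (Slc1a2 and Slc6a6), 1 was higher (Slc38a3) and 14 were neither, with a median relative log2 ratio of -0.10. Slc6a6, the taurine carrier, measured 273 CPM in control cells and 126 CPM in Alk1 ECKO, at a relative log2 ratio of -0.90. Slc38a3, a glutamine carrier (SNAT3), measured 64.0 and 97.5 CPM, at 0.82. Slc1a2, a glial and neuronal glutamate carrier, measured 5.89 and 0.37 CPM, and rod RNA at the levels above would give 2.41 and 0.25 CPM. Slc1a4, Slc43a1 and Slc7a7, at -0.57, 0.47 and 0.45, were not called.

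ATF4 and its targets form the response to amino acid shortage. Of 32 listed genes 28 were measured, 1 was lower, 4 were higher and 23 were neither, with a median of 0.06. The higher ones were Eif4ebp1, a repressor of cap-dependent translation, at 83.6 against 150.2 CPM, and 3 genes at low levels. These were Chac1 (1.06 against 2.0 CPM), Trib3 (2.70 against 5.50 CPM) and Nupr1 (0.68 against 2.38 CPM, 7 and 90 UMIs). Chac1 breaks down glutathione, and Trib3 and Nupr1 are stress-induced regulators. The lower one was Ddit4, an inhibitor of mTORC1, at 57.7 against 26.2 CPM. Phgdh and Gpt2, at -0.50 and -0.81, were not called.

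The last list holds genes through which mTORC1 reads amino acids. Of 31 listed 29 were measured, 3 were lower, 0 were higher and 26 were neither, with a median of -0.10. Sesn1, a Sestrin and so of the family that binds leucine, measured 48.8 against 24.5 CPM. Wdr59, a GATOR2 subunit, measured 9.75 against 4.97 CPM, and Fnip1, a folliculin partner, 17.6 against 9.31 CPM. The Ragulator subunits Lamtor3 and Lamtor5 and the GATOR2 subunit Sec13 were the highest, at 0.54, 0.52 and 0.49, and were not called. The shares of all measured genes to set beside these counts are the 9.07% lower and 9.20% higher given above.

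**Figure D5:**
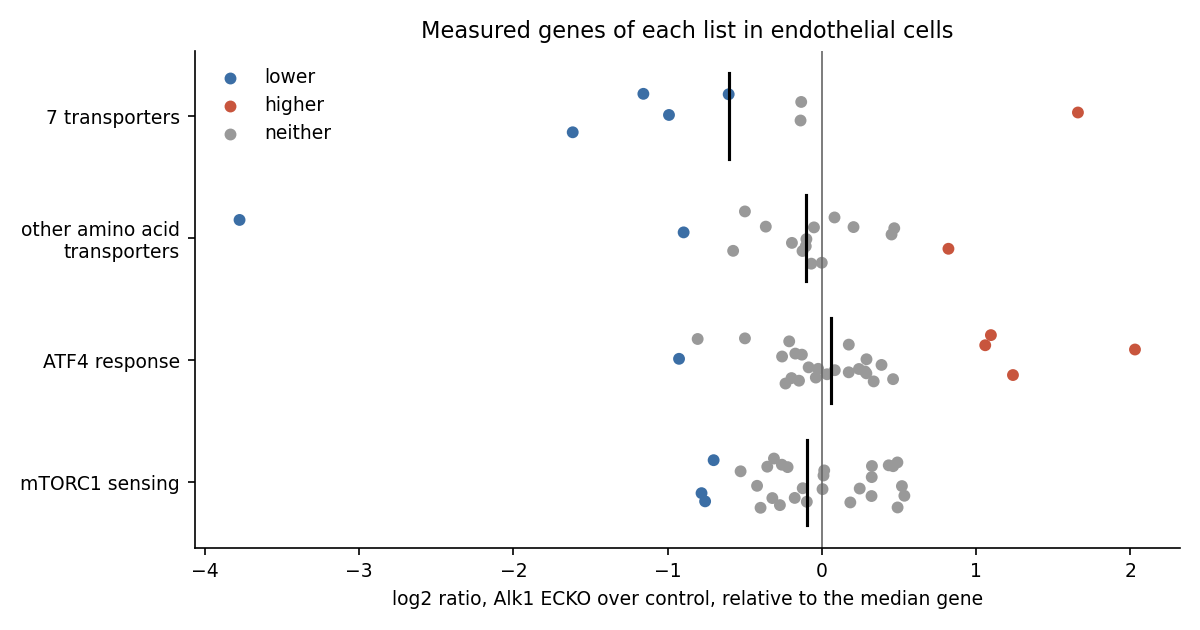
Log2 ratio of Alk1 ECKO over control in endothelial cells, relative to the all-gene median, for each measured gene of the 7 carriers and 3 lists; black bars are medians and colours give the call. The carriers' median lies at -0.60, those of the lists between -0.10 and 0.06.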

How the data were processed

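Each library was deposited as a matrix of raw UMI counts for every gene and barcode. Per the file headers Cell Ranger 5.0.1 wrote it, but the processing notes of the submitters list Cell Ranger 6.1.1, with FastQC 0.11.9 and mm10. How introns were counted is not given in the sources used here. Each barcode held at least 500 UMIs, and medians were 3707 in control and 2564.5 in Alk1 ECKO. The members and gene lists were chosen with earlier results of these data known.

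Barcodes were kept at 1000 UMIs and 500 genes or more and 10% mitochondrial UMIs or less. Scrublet (scanpy 1.11.5) called 0 and 1 doublets by itself, so the highest scores were removed at 0.8% per 1000 cells, 500 control and 143 Alk1 ECKO barcodes. Both libraries were clustered together on 3000 variable genes without the members, with 30 components, 15 neighbours and Leiden resolution 1 (leidenalg 0.10.2), and endothelial cells again at 0.6. A cluster was named from 3 or more markers among its top 20 genes, unless histone genes led it. Clusters with under 1% mitochondrial UMIs, doublet scores over 0.12 (medians) or leading markers of another class were set aside. These naming rules were written after the clusters were seen.

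UMIs were summed per class and library and given as CPM. Intervals at 95% are exact Poisson (levels), conditional binomial (ratios), Clopper-Pearson (shares) or normal (differences, equal makeup) and cover counting error alone. A gene was measured from 30 UMIs over both libraries. The calls and intervals were run on simulated counts with Poisson error alone, the error that the intervals assume. This checks the calculation and does not cover variation between cells or libraries. Named genes are the 7 carriers, Acvrl1, the 3 highest and 3 lowest ratios of each list and the 3 genes most correlated with each carrier, sex-linked, mitochondrial, ribosomal and haemoglobin genes left out. Eif4ebp1 falls outside this rule and was named after its value was seen, to complete a count of 4. Other thresholds, filters, makeups and scalings were tried.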

Additional observations from a re-analysis of the deposited data

How the results depend on the processing

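All 7 carriers kept the direction of their relative log2 ratio under all 12 alternatives that gave one, 10 chosen at the start and 2 after seeing the data (counting the sub-cluster with mural genes, and leaving out sub-clusters under 5000 UMIs). Slc7a1 ranged from -1.37 to -0.91, Slc7a8 from -1.83 to -0.68, Slc43a2 from -1.21 to -0.57, Slc38a5 from -1.0 to -0.43, Slc7a5 from -0.36 to -0.11, Slc3a2 from -0.35 to -0.09 and Slc1a1 from 0.70 to 1.74. At equal makeup with other sub-cluster resolutions, Slc3a2 (0.06 at 0.4) and Slc7a5 (0.07 at 1.0), neither of them called, changed sign. The count of lower carriers fell from 4 to 2 at a fold of 2 and to 2 at equal makeup. Of all measured genes 9.07% were lower and 9.20% higher. These shares were 18.8% and 20.9% at a laxer fold, 3.19% and 3.62% at a fold of 2, 7.86% and 7.92% with no UMI minimum, 8.13% and 8.65% from 100 UMIs, 10.5% and 9.44% as per-cell means, 10.6% and 10.4% without cycling sub-clusters, 10.5% and 11.6% with low mitochondrial clusters, 9.59% and 10.2% with the mural sub-cluster, 6.77% and 6.76% at equal makeup, and 18.8% and 4.59% without the median scaling. No paired analysis was possible because each genotype has 1 library and the labels give no replicate numbers. The cause of the changes below was not tested.

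Of other amino acid transporters, 1 was higher, and 3 at a laxer fold, 0 at a fold of 2, 2 at equal makeup and 3 without cycling sub-clusters. The 2 lower ones became 6 with no UMI minimum, 5 at a laxer fold, 1 at a fold of 2 and 1 as the mean of per-cell CPM, and 4 each with low mitochondrial clusters, without the median scaling, with the mural sub-cluster and without cycling sub-clusters. ATF4 genes higher went from 4 to 2 at 100 UMIs or more and 7 without cycling sub-clusters. ATF4 genes lower went from 1 to 2 at a laxer fold, 0 at a fold of 2, 2 as per-cell means, 3 without the median scaling and 4 at equal makeup. The 0 mTORC1 genes higher became 2 with no UMI minimum, 9 at a laxer fold, and 1 each as per-cell means, at equal makeup and without cycling sub-clusters. The 3 lower ones became 6 at a laxer fold, 0 at a fold of 2, 6 without the median scaling, 1 at equal makeup and 6 without cycling sub-clusters. In the 5 other classes, 0 lower became 1 at 2000 UMIs per barcode, and 2 each with doublets kept, as per-cell means and without the median scaling. Under the main processing 5.51% to 8.24% of all measured genes were lower in those classes. The shares in those classes under the alternatives are not given here.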

Other observations

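The 1245 Alk1 ECKO barcodes that were set aside for a low mitochondrial share hold endothelial genes and 3280318 UMIs. Haemoglobin genes (Hbb-bs, Hba-a2, Hba-a1) stand among the leading genes of both their clusters, with 4 erythroid markers in the top 20, beside the endothelial genes Gpihbp1 and Icam2; the part of red cell RNA in the levels below was not tested. Slc3a2 there measured 670 CPM (642 to 698), against 634 CPM in the retained Alk1 ECKO endothelial cells, and Slc38a5 measured 83.8 CPM (74.2 to 94.4) against 95.4 CPM. Slc7a5 measured 64.3 CPM (55.9 to 73.6) against 143 CPM. Slc7a1, the cationic amino acid carrier, measured 29.9 CPM (24.3 to 36.4) against 275 CPM, a difference of -3.20 on the log2 scale. Only 3 such barcodes came from the control library, so they allow no comparison of genotypes.

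Slc7a1 and Slc38a5 were detected together more often than the product of their single shares in Alk1 ECKO. Of 914 endothelial cells thinned to 5000 UMIs, 22.2% (19.6 to 25.1) held both, against a product of 16.9%. In control 37.4% of 286 cells (31.8 to 43.3) held both, against a product of 33.4% that lies within the interval. These shares pool sub-clusters that differ in the levels of both genes, and the part of that pooling was not tested.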
